A study of Mus musculus with 9 samples.

Results

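Imprinted genes are expressed mainly or only from the copy inherited from one parent. The set described here holds 46 mouse imprinted genes, chosen as listed gene symbols in the annotation of Affymetrix Mouse Gene 2.0 ST arrays, with 1 probe set per gene. The probe set taken was the one with the highest mean over the 9 arrays among those that name a single gene. Of the 46 genes, 40 had such a probe set, out of 22180 gene symbols that had one. A further 4 (H19, Mirg, Rtl1 and Snrpn) were covered only by probe sets that name several genes, and no probe set named Slc22a3 or Zrsr1.

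The arrays measured RNA of embryoid bodies (EBs), aggregates in which embryonic stem cells begin to form the early embryonic layers. All groups were made from a single line of C57BL/6 mouse embryonic stem cells that was kept without serum or feeder cells, and the EBs grew in hanging drops until day 3. They were then kept for 24 h without silver (control), with citrate-coated silver nanoparticles of 20 nm (AgNP) at 5.0 µg/ml, or with silver ion (Ag+) at 5.0 µg/ml, with 3 arrays of biological replicates in each group. Levels are log2 values after robust multi-array averaging (RMA), so a difference of 1 is a doubling. Because the cells come from an inbred strain and the arrays sum both parental copies, the values say how much RNA a gene gave and not from which allele.

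At many imprinted loci, though not all, DNA methylation laid down in the egg or the sperm marks one copy at a control region. There the mark is kept through the early embryo by maintenance methylation and by zinc finger proteins that recruit silencing complexes to the methylated copy. The arrays do not measure this mark. Neighbouring genes of a cluster often respond to one control region with opposite parental expression. Many paternally expressed genes promote growth of the fetus and placenta, and many maternally expressed genes restrain it. Several are most active in mesoderm, extraembryonic tissues and placenta.

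With Ag+, 6 of the 40 measured imprinted genes (15.0%) passed the threshold, an adjusted p under 0.05 in limma with Benjamini-Hochberg adjustment over 25341 named probe sets. The share over all of these probe sets was 2.28%, with 0.813% higher and 1.47% lower. The measured imprinted genes were brighter than the array as a whole. A mean signal of at least 5 was reached by 31 of the 40 genes and by 12906 of the 25341 probe sets. A fit of those 12906 alone called 6.49% of them with Ag+ and 0.325% with AgNPs. Of the 31 genes, 19.4% passed with Ag+ and 3.23% with AgNPs in the fit of all named probe sets. The amino acid transporter gene Slc38a4, Mest, the placental growth regulator Phlda2, the zinc finger gene Peg3 and the scavenging receptor gene Igf2r were lower than in controls by 1.20- to 2.31-fold, and the neuronal membrane protein gene Nnat was higher, 1.75-fold. With AgNPs, Slc38a4 alone passed, 1.69-fold lower, which is 1 of 40 (2.5%) beside 0.0868% over all probe sets (0.0513% lower). Between AgNP and Ag+ none of the 40 passed, where the share over all probe sets was 0.509%. At an unadjusted p under 0.05 there were 6 of the 40 (15%), beside 8.31% of all probe sets. H19 could be read only from a probe set shared with Mir675, and that probe set was 2.11-fold lower with Ag+.

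The study's thresholds were a fold change of at least 1.5 and an unadjusted p under 0.05. Here they were applied to the p of limma, not to that of the test of the study's methods. With AgNPs, 2 of 40 were lower (Slc38a4 and Mest), beside 0.276% lower and 0.454% in either direction over all probe sets. With Ag+, 4 were lower (Slc38a4, Mest, Phlda2 and Igf2) and Nnat was higher, where the share over all probe sets was 1.67% (0.572% higher and 1.1% lower). Between the treatments, where it was 0.758% (0.513% higher and 0.245% lower), Phlda2 was higher and Nnat lower with AgNPs. With the test of the study's methods, Nnat alone passed these thresholds between the treatments. The comparisons with control use the same 3 control arrays.

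**Figure D1:**
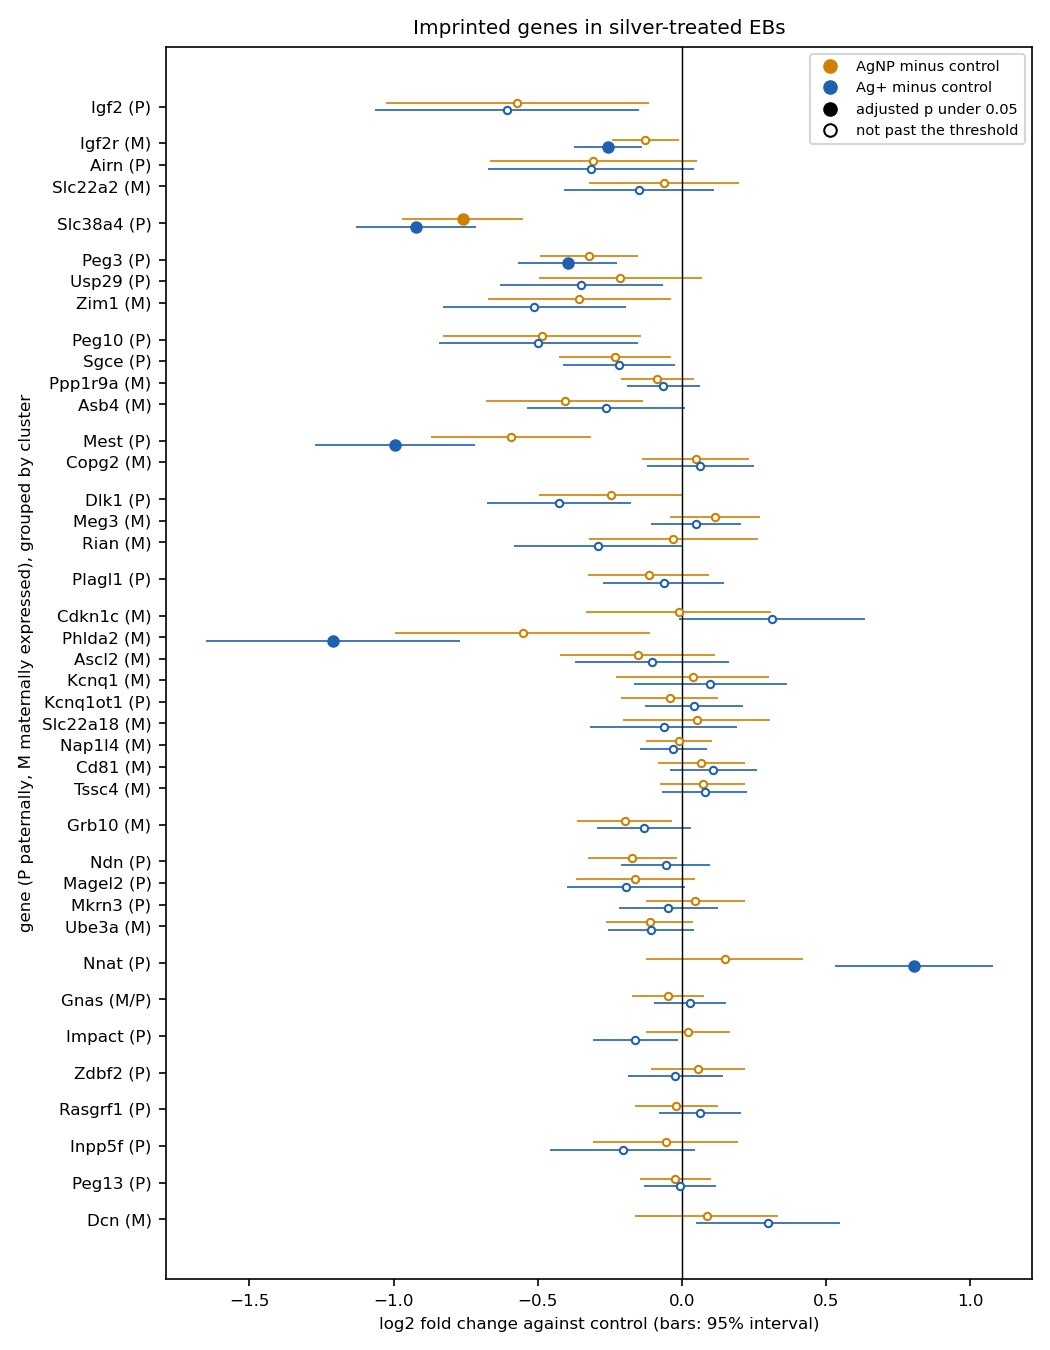
Log2 fold change against control (horizontal axis) of the 40 imprinted genes with a probe set of their own, grouped by cluster, for AgNP (orange) and Ag+ (blue), with 95% intervals; filled points passed an adjusted p of 0.05. Slc38a4 passed with both treatments, Mest, Phlda2, Peg3, Igf2r and Nnat passed with Ag+, and most other points lie within 0.5 of 0.

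Slc38a4 (probe set 17320947) encodes an amino acid transporter that is paternally expressed in the fetus and placenta. Its level was 10.18, 10.31 and 10.54 on the control arrays, 9.49, 9.64 and 9.64 on the AgNP arrays and 9.47, 9.44 and 9.37 on the Ag+ arrays. Every treated array lay below every control array, and the Ag+ arrays lay just below the AgNP arrays. The difference from control was -0.76 with AgNPs (SE 0.093, adjusted p = 0.0312 in limma) and -0.92 with Ag+ (adjusted p = 0.00116). The Ag+ call stood with any 1 of the 9 arrays left out (adjusted p 0.0017 to 0.00896). The AgNP call stood only without control replicate 1, and was lost without any one of the other 8 arrays (differences over the 9 of -0.84 to -0.66).

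Mest (probe set 17456934) is a paternally expressed gene of mesoderm and encodes a putative hydrolase. It read 8.97, 9.33 and 9.48 in controls, 8.54, 8.76 and 8.70 with AgNPs and 8.26, 8.19 and 8.36 with Ag+. All 3 groups were apart from each other, with AgNP in between. The difference from control was -0.59 with AgNPs (1.51-fold, adjusted p = 0.197 in limma) and -0.99 with Ag+ (1.99-fold, SE 0.123, adjusted p = 0.00341), and the AgNP arrays were 0.40 above the Ag+ arrays (95% interval 0.12 to 0.68, adjusted p = 0.332). Copg2, its neighbour in the cluster and a subunit gene of the COPI vesicle coat, gave 0.05 and 0.06 against control. The promoter of Mest carries methylation on the silent maternal copy, and its sequence is shown with those of Peg3 and Nnat, whose promoters do likewise, and with that of the maternally expressed Phlda2, as the called genes of both parental kinds. The RefSeq windows (GRCm38.p6) run from 250 bases before the start of transcription to 50 after it, 5′ to 3′ on the gene's strand, with CG dinucleotides, the sites of this methylation, in capitals. They lie at chr6:30737800-30738099 (+ strand) for Mest, chr7:6730370-6730669 (- strand) for Peg3, chr2:157559828-157560127 (+ strand) for Nnat and chr7:143502475-143502774 (- strand) for Phlda2.
Mest promoter: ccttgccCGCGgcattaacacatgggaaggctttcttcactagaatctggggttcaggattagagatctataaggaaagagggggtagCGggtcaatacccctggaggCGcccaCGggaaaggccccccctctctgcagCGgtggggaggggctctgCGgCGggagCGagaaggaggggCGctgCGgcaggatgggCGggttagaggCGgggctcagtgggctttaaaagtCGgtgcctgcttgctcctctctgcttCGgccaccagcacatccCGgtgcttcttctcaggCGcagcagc
Peg3 promoter: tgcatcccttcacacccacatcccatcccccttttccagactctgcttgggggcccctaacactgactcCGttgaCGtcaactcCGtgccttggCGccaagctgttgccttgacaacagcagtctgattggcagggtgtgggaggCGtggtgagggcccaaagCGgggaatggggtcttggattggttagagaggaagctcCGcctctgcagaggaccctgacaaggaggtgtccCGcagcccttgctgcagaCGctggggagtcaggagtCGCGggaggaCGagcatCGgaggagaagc
Nnat promoter: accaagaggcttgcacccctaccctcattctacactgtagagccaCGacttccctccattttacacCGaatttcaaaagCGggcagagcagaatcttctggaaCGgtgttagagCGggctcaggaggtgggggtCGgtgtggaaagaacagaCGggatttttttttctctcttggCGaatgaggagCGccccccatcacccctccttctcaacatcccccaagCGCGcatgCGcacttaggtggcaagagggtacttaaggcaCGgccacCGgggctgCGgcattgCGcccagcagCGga
Phlda2 promoter: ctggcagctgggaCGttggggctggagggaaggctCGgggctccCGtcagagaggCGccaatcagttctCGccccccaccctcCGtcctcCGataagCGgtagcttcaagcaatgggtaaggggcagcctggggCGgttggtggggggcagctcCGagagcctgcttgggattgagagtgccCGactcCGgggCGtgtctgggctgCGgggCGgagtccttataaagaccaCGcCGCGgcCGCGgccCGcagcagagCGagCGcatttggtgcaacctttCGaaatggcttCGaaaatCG

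These windows hold 17 CG in Mest, 13 in Peg3, 17 in Nnat and 26 in Phlda2, beside a median of 7 over all 32851 promoter windows of the table. For a gene with several windows the one with the most CG was taken. On that rule the median over 27025 genes is 8. Mest has 3 windows, and those not shown hold 8 and 17 CG. The hexamer TGCCGC, which the imprint maintenance factor ZFP57 recognises when methylated, was searched on both strands (its reverse complement is GCGGCA). It starts at positions 9 and 184 of the Mest window shown and at position 278 of the Nnat window, counted from the 5′ end, and is not in the Peg3 or Phlda2 window. The Mest window with 8 CG lacks it. Over all windows 11.6% hold it, and over the 54 windows used for 36 listed genes, 12 do (22.2%). The hexamer itself holds a CG, and these 54 windows have a median of 13 CG, beside 7 over all windows. The 2 shares are thus not matched for CG content. The 2 Mest windows that hold the hexamer overlap, and both are counted. The windows of listed genes, unlike those of all genes, were first filtered by chromosome. Phlda2 has the letters TATAAA from position 221, which 8.3% of all windows hold on the gene's strand. The called genes thus include promoters with and without either motif. The window of Slc38a4, at 5 CG, holds the fewest among the called genes and that of Igf2r, at 34, the most.

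Mir335, a microRNA gene in an intron of Mest, has a probe set of its own. Its mature products are the following, from RefSeq, with the seed (bases 2 to 8) in capitals.
miR-335-5p: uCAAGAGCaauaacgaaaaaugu
miR-335-3p: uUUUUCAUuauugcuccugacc
The Mir335 probe set averaged 3.09 ± 0.14 in controls (SD, n = 3), 3.00 ± 0.12 with AgNPs and 3.07 ± 0.49 with Ag+, a difference of -0.02 with Ag+ (adjusted p = 0.982 in limma). Mest was thus called with Ag+ and its microRNA gene was not, at a level among the 25% of named probe sets with a mean signal under 3.72.

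**Figure D2:**
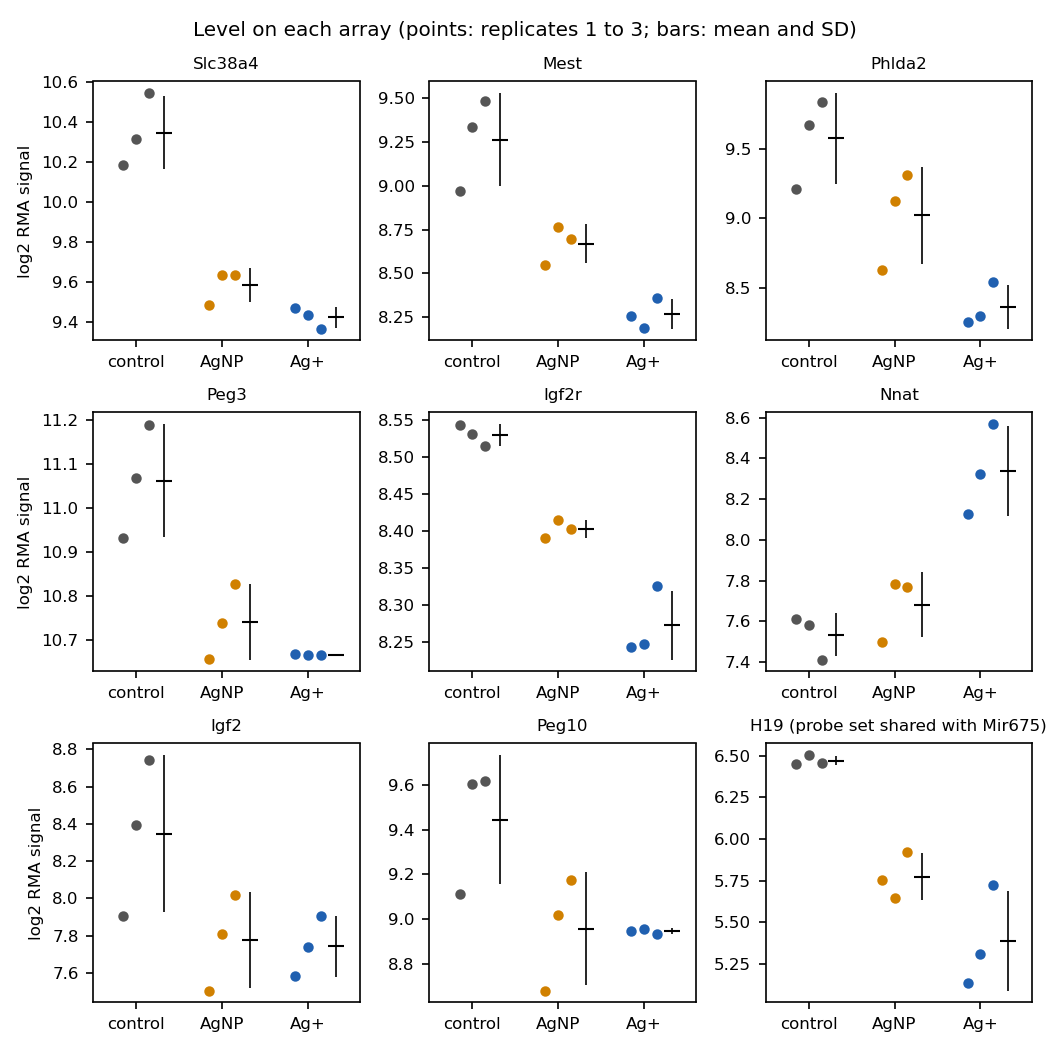
Log2 RMA signal on each array (vertical axis) for 8 imprinted genes with a probe set of their own and for the shared H19 probe set, by group, with points for replicates 1 to 3 and bars for the mean and SD. Slc38a4, Mest, Peg3, Igf2r and H19 separate the controls from both treatments, and Nnat and Phlda2 separate Ag+ from the other arrays. Control and AgNP arrays overlap for Igf2, Phlda2, Peg10 and Nnat. The vertical axes differ between panels.

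In the H19/Igf2 cluster, Igf2 encodes a fetal growth factor made from the paternal copy, and H19 is a maternally expressed noncoding RNA that shares its enhancers. Igf2 (probe set 17498142) read 7.91, 8.40 and 8.74 in controls, 7.50, 7.81 and 8.02 with AgNPs and 7.58, 7.74 and 7.90 with Ag+. The lowest control array lay within the range of the AgNP arrays and just above the Ag+ arrays. The differences were -0.57 with AgNPs (95% interval -1.03 to -0.11, adjusted p = 0.496 in limma) and -0.61 with Ag+ (-1.06 to -0.15, adjusted p = 0.22), neither past the threshold, and AgNP minus Ag+ was 0.04. The SD of the controls, 0.42, was the widest of any group of Igf2. In each group the Igf2 level rose from replicate 1 to replicate 3. The labels do not say that the number marks a batch. A fit with the number as a block, described below, did call Igf2 with Ag+.

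The H19 probe set (17498126) also names Mir675, the microRNA cut from the H19 transcript, so the 2 cannot be told apart. It gave 6.45, 6.50 and 6.45 in controls, 5.75, 5.64 and 5.92 with AgNPs and 5.14, 5.31 and 5.72 with Ag+. Every treated array was below every control array, and 1 Ag+ array lay among the AgNP arrays. Against control it was -0.70 with AgNPs (adjusted p = 0.163 in limma) and -1.08 with Ag+ (SE 0.135, adjusted p = 0.00358). Thus the probe sets of both oppositely imprinted genes of the cluster averaged below control with each treatment, with only that of H19 past the threshold, and only with Ag+. The products of Mir675 are shown because their host transcript carries this result.
miR-675-5p: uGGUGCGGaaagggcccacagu
miR-675-3p: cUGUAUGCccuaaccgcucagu
Their seeds, in capitals, differ from each other and from those of miR-335. Mir483, a microRNA gene within Igf2, averaged 6.69 ± 0.47 in controls (SD, n = 3) and 6.63 ± 0.16 with Ag+, a difference of -0.06 (adjusted p = 0.944 in limma).

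Igf2r encodes the receptor that removes IGF2 from the cell surface, and is maternally expressed. Its probe set (17340845) read 8.54, 8.53 and 8.51 in controls, 8.39, 8.41 and 8.40 with AgNPs and 8.24, 8.25 and 8.33 with Ag+. The 3 groups did not overlap, and AgNP lay between the others. The difference with Ag+ was small in size, -0.26 (1.20-fold, SE 0.052, adjusted p = 0.0393 in limma), and the call was lost without any 1 of the 9 arrays (adjusted p 0.0556 to 0.135). With AgNPs it was -0.13 (adjusted p = 0.557). Airn, the paternal noncoding RNA whose transcription silences Igf2r in cis, gave -0.31 and -0.32 with intervals across 0, and the organic cation transporter gene Slc22a2 gave -0.06 and -0.15 at a level near 4.4.

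In the Peg3 cluster, Peg3 is a paternally expressed zinc finger gene linked to growth and maternal care. Its probe set (17486110) read 10.93, 11.07 and 11.19 in controls, 10.66, 10.74 and 10.83 with AgNPs and 10.67 on each of the Ag+ arrays. All treated arrays were below all controls, and the Ag+ arrays lay within the AgNP range. The difference was -0.32 with AgNPs (adjusted p = 0.28 in limma) and -0.40 with Ag+ (1.32-fold, SE 0.076, adjusted p = 0.0299). The Ag+ call was lost when control replicate 2 or 3, AgNP replicate 2 or any Ag+ replicate was left out (adjusted p up to 0.108). A probe set shared by Peg3 and the antisense transcript Peg3os gave -0.35 and -0.40 without passing (adjusted p = 0.431 and 0.125). Its neighbours did not pass either: the paternal deubiquitinase gene Usp29, whose promoter window overlaps that of Peg3 by 263 bases on the other strand, was at -0.21 and -0.35, and the maternal zinc finger gene Zim1 was at -0.36 and -0.51 (adjusted p = 0.125 with Ag+). All 3 genes of this cluster averaged below control with both treatments.

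Nnat, paternally expressed, encodes a small membrane protein of developing neural and endocrine tissue and was the only called member with a higher level. Its probe set (17378741) read 7.61, 7.58 and 7.41 in controls, 7.50, 7.78 and 7.77 with AgNPs and 8.13, 8.32 and 8.57 with Ag+. The Ag+ arrays stood above all others, whereas the control and AgNP arrays overlapped. The difference was 0.80 with Ag+ (1.75-fold, SE 0.121, adjusted p = 0.0091 in limma) and 0.15 with AgNPs (95% interval -0.13 to 0.42), and AgNP minus Ag+ was -0.66 (-0.93 to -0.38, adjusted p = 0.0646). The Ag+ call stood with any 1 array left out (adjusted p up to 0.0436). A second Nnat probe set (17393764) did not move with it. It averaged 5.86 in controls, 5.85 with AgNPs and 5.94 with Ag+ (adjusted p = 0.841 for Ag+), and with the mean of both probe sets the Nnat difference was 0.44 and its call was lost (adjusted p = 0.0997). What separates the 2 probe sets was not tested.

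The Kcnq1 cluster holds 9 measured genes, 8 of them maternally expressed, under the paternal noncoding RNA Kcnq1ot1. Phlda2, a restrainer of placental growth, was the one gene of the cluster that passed. Its probe set (17498251) read 9.21, 9.67 and 9.84 in controls, 8.63, 9.12 and 9.31 with AgNPs and 8.25, 8.30 and 8.54 with Ag+. The Ag+ arrays lay below all others, and 1 AgNP array reached the control range. The difference from control was -0.55 with AgNPs (adjusted p = 0.496 in limma) and -1.21 with Ag+ (2.31-fold, SE 0.196, adjusted p = 0.0135), and AgNP minus Ag+ was 0.66 (95% interval 0.22 to 1.10, adjusted p = 0.311). The Ag+ call was lost without control replicate 2, Ag+ replicate 1 or Ag+ replicate 2 (adjusted p up to 0.0693).

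Cdkn1c, a cell cycle inhibitor next to Phlda2 in this cluster, did not pass, with 0.31 for Ag+ against control (95% interval -0.01 to 0.63, adjusted p = 0.377). Its Ag+ arrays, at 6.73, 6.70 and 7.06, were all above its control arrays, at 6.32, 6.59 and 6.64. The other 7 genes lay between -0.15 and 0.11 against control with both treatments. They were Ascl2, a trophoblast transcription factor, the potassium channel gene Kcnq1, Kcnq1ot1, the transporter gene Slc22a18, the histone chaperone gene Nap1l4, the tetraspanin gene Cd81 and Tssc4. Within the cluster the median difference with Ag+ was 0.04, with 5 genes above and 4 below 0.

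The Peg10/Sgce cluster had 4 measured genes, and all 4 averaged below control with both treatments without passing. Peg10, a retrotransposon-derived gene needed for the placenta, read 9.11, 9.60 and 9.62 in controls, 8.68, 9.02 and 9.18 with AgNPs and 8.95, 8.96 and 8.93 with Ag+. Its Ag+ arrays were all below its controls, while 1 AgNP array was not, and the differences were -0.49 and -0.50 (adjusted p = 0.429 and 0.175 in limma). Sgce, a sarcoglycan gene read from a shared promoter region with Peg10, gave -0.23 and -0.22, the ubiquitin ligase adaptor gene Asb4 gave -0.41 and -0.26, and Ppp1r9a, a neuronal actin-binding protein gene, gave -0.09 and -0.07.

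In the Dlk1/Meg3 cluster, Dlk1, a paternally expressed transmembrane relative of the Notch ligands, gave -0.25 with AgNPs and -0.43 with Ag+ (adjusted p = 0.104 in limma). Its arrays read 5.59, 5.86 and 6.08 in controls and 5.35, 5.53 and 5.36 with Ag+, so these groups did not overlap. The maternal noncoding RNA Rian gave -0.03 and -0.29 (adjusted p = 0.371 with Ag+). Meg3, another of these RNAs, gave 0.12 and 0.05 at a mean level of 4.55, and 2 probe sets that it shares with microRNAs gave 0.01 and -0.09, and 0.16 and 0.22. The shared probe sets of Mirg and of the retrotransposon-derived Rtl1 with the highest means gave -0.05 and -0.18, and 0.18 and -0.14, none of them called.

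The Snrpn/Ube3a cluster, known for neural functions, showed no call. The paternal genes Ndn, Magel2 and Mkrn3 and the maternal ubiquitin ligase gene Ube3a lay between -0.19 and 0.05 in both comparisons with control. Ndn, a growth-suppressing MAGE family gene, had AgNP arrays all below its controls (-0.17, adjusted p = 0.541 in limma), and the brighter probe set shared by Snrpn and Snurf gave 0.06 and -0.14. Grb10, which encodes an adaptor that restrains insulin and IGF receptors, read 9.90, 9.83 and 9.62 in controls against 9.60, 9.56 and 9.59 with AgNPs. Those groups were apart by a narrow gap (-0.20, adjusted p = 0.508), and the Ag+ difference was -0.13.

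The remaining 8 genes stand alone in the list. Gnas, a G protein subunit gene with transcripts of either parental origin, Plagl1, Zdbf2, Rasgrf1 and Peg13 lay between -0.12 and 0.06 against control with either treatment. Impact, a regulator of translation under amino acid stress, had Ag+ arrays at 8.43, 8.44 and 8.48, all below its controls at 8.60, 8.58 and 8.66 (-0.16, adjusted p = 0.313 in limma). Inpp5f, a phosphoinositide phosphatase gene, gave -0.21 with Ag+ (adjusted p = 0.46). Dcn, a maternally expressed matrix proteoglycan gene, was near the floor of the array in controls (3.28, 3.28 and 3.29) and read 3.40, 3.47 and 3.88 with Ag+, a difference of 0.30 (adjusted p = 0.272).

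Taking the 40 genes as a list, 29 averaged below control with each treatment, with median differences of -0.07 for AgNP and -0.11 for Ag+. Over all named probe sets the median difference was -0.01 and 0.00, and 53.0% and 51.1% lay below 0. Without overlap between the arrays of treatment and control, 9 genes were lower and 1 higher with AgNPs (25%). Over all named probe sets 10.9% had no overlap there, 6.09% lower and 4.84% higher. With Ag+, 13 were lower and 4 higher (42.5%), beside 16.5% over all, 9.51% lower and 6.99% higher. For AgNP minus Ag+, 7 were higher and 4 lower (27.5%), beside 12.3% over all, 6.72% higher and 5.61% lower, and the median difference was 0.01. These shares describe the list, whose genes were not picked at random.

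The parental labels are those of the list, and the allele used in these EBs was not measured. By label, the 20 paternally expressed genes had a median of -0.17 with AgNPs and -0.20 with Ag+, with 16 and 17 of them below 0. The 19 maternally expressed genes had medians of -0.03 and -0.07, with 12 below 0 each time. More of the maternal genes came from the Kcnq1 cluster than from any other. With Ag+, 4 of the 20 paternal genes were called (Slc38a4, Mest and Peg3 lower, Nnat higher) and 2 of the 19 maternal genes (Phlda2 and Igf2r, both lower), and whether the alleles differ was not tested. These medians and counts leave out H19, Mirg, Rtl1 and Snrpn, which had shared probe sets only. Of these, the maternally expressed H19 was called lower with Ag+ (-1.08, adjusted p = 0.00358 in limma), and Mirg, Rtl1 and Snrpn were not called. The paternal and maternal medians moved with single arrays. For the paternal genes with AgNPs the median was -0.11 without control replicate 3, and with any 1 array left out it lay between -0.19 and -0.11 with AgNPs and between -0.23 and -0.18 with Ag+. For the maternal genes it lay between -0.07 (without AgNP replicate 2) and 0 (without control replicate 3) with AgNPs, and between -0.09 (without control replicate 2) and -0.04 (without control replicate 1) with Ag+. Restricted to the 31 genes with a mean level of at least 5, the medians were -0.12 and -0.16.

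**Figure D3:**
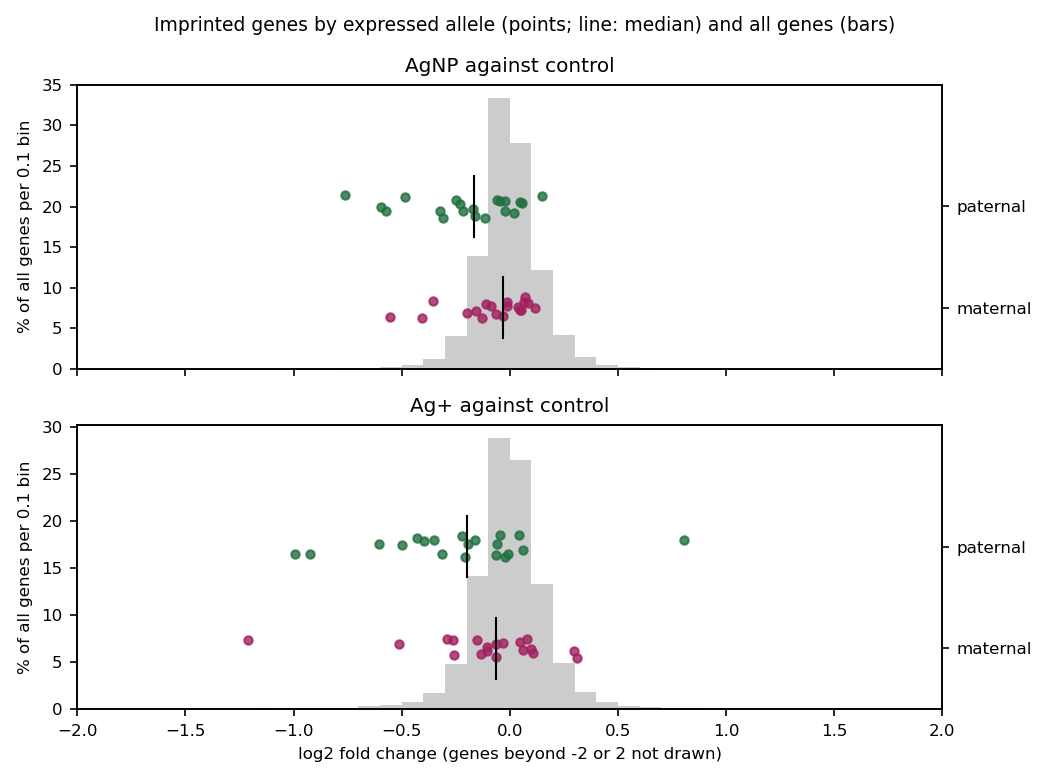
Log2 fold change (horizontal axis) of 20 paternally and 19 maternally expressed genes with a probe set of their own (points, with a line at the median; heights within a row are spread at random) over the distribution of 22180 genes (grey bars, percent of genes per 0.1 bin), for AgNP above and Ag+ below. The paternal medians, -0.17 and -0.20, lie left of the maternal medians, -0.03 and -0.07, and Nnat is the one point far to the right with Ag+.

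Spread within groups set what could be seen. The pooled SD within a group had a median of 0.12 over the 40 genes (0.02 for the tightest and 0.30 for the widest) beside 0.11 over all genes. For 21 of the 40 genes (52.5%, beside 58.0% of named probe sets), the deposited value was identical on some arrays, as median polish can give; Nap1l4 had 1 value on 7 arrays. Control replicate 3 was the highest of the 9 arrays for 14 of the 40 genes and AgNP replicate 1 the lowest for 10. With both of these left out, a choice made after the values were seen, Slc38a4 was no longer called with AgNPs (-0.61, adjusted p = 0.131 in limma). With Ag+, Slc38a4, Mest, Phlda2 and Nnat were called, Zim1 was added, and Peg3 and Igf2r were not (adjusted p = 0.069 and 0.0875).

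RNA of whole EBs cannot tell fewer cells of a type from less RNA of a gene in each cell. By the paper, cell death in EBs at these doses was higher with Ag+ than with AgNPs. It also reports that cells fell off the outer layer of EBs from a lower dose with Ag+. The part of this cell loss in the values was not tested. Markers of several cell types moved with the groups. Of 8 lateral and extraembryonic mesoderm markers, all 8 were lower with Ag+ (Tbx20, Tbx3, Gata4 and Kdr had the smallest p) and Tbx20 also with AgNPs, and the mean level of the list ranged over 8.06 to 8.62 on control, 7.19 to 7.71 on AgNP and 6.35 to 6.46 on Ag+ arrays. All 8 paraxial mesoderm markers were higher with Ag+ (Dll1, Foxc2, Tbx6 and Tcf15 had the smallest p) and Dll1 also with AgNPs, with list means of 5.96 to 6.07, 6.45 to 6.97 and 7.37 to 7.75. Beside these counts, 2.28% of all probe sets passed with Ag+ and 0.0868% with AgNPs. Of the visceral endoderm markers, 4 of 10 (Cubn, Apob, Ttr and Amn) were lower with Ag+ (list means of 6.33 to 6.40 in controls, 5.60 to 5.72 with Ag+). In the same list Sox17 and Foxa2 had positive differences, 0.30 and 0.38, that did not pass (adjusted p = 0.0722 and 0.185 in limma). With Ag+ lower levels were also called for 4 of 8 parietal endoderm markers, Sparc, Lama1, Col4a1 and Col4a2 (list means of 7.81 to 7.96 and 7.32 to 7.49). None of either endoderm list was called for AgNPs. Their part in the results for the imprinted genes was not tested.

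Of 6 measured trophoblast markers only Eomes, also a gene of the primitive streak, passed with Ag+, 0.97 lower. Krt7 and Cdx2 had positive differences, 0.47 and 0.53, without passing (adjusted p = 0.0826 and 0.318 in limma), and 4 of the 6 had an unadjusted p under 0.05, beside 13.8% of all probe sets. The list mean, which averages differences of both signs, was 5.51 to 5.74 in controls and 5.51 to 5.68 with Ag+. Tpbpa, which marks the spongiotrophoblast, was near 3 in every group. Of 8 epiblast and pluripotency markers Klf4 alone was called with Ag+, and was lower. In controls Fgf5, Nanog, Sox2 and Otx2 averaged 8.22, 7.95, 7.49 and 7.435. Pou5f1, Klf4, Zfp42 and Esrrb averaged 6.09, 5.99, 5.05 and 4.45, beside a median of 5.06 over named probe sets. Since each probe set has its own brightness, these levels do not settle which of the markers were expressed. Of 7 fibroblast markers only Postn passed, higher with Ag+.

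**Figure D4:**
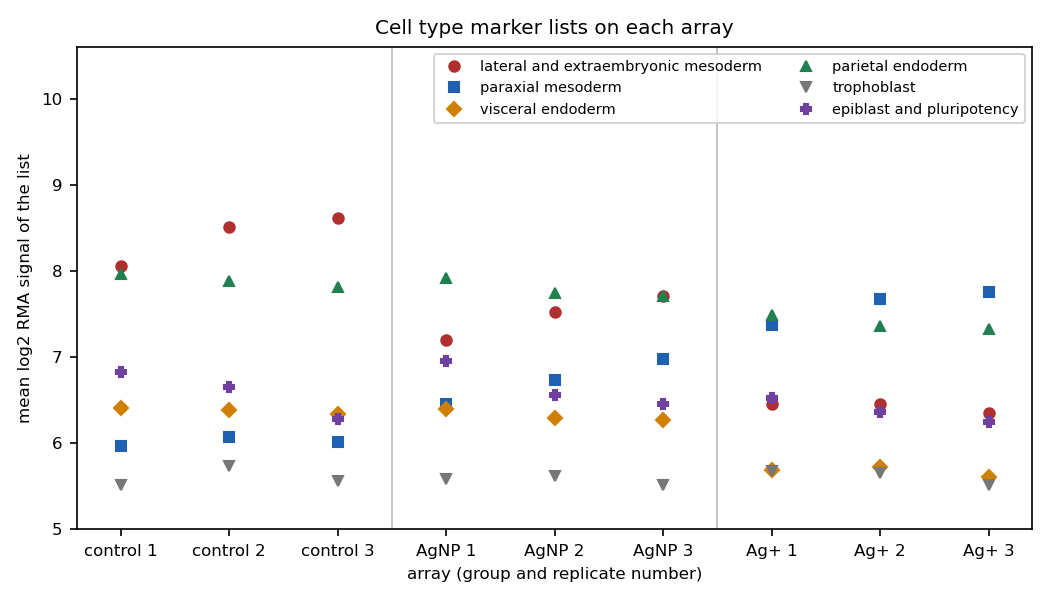
Mean log2 RMA signal (vertical axis) of 6 lists of cell type markers on each of the 9 arrays (horizontal axis, by group and replicate number). The lateral and extraembryonic mesoderm list goes from above 8 in controls to below 6.5 with Ag+, the paraxial list from near 6 to above 7, and the trophoblast list stays between 5.51 and 5.74; heights of different lists are not comparable, since each probe set has its own brightness.

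The machinery that sets and keeps imprints was called in no comparison. All 20 listed regulators were measured, and 0 passed in limma for AgNP, Ag+ or AgNP minus Ag+, with medians of -0.03, -0.05 and 0.03. At an unadjusted p under 0.05 there were 0, 3 and 2 (0%, 15% and 10%), beside 8.44%, 13.8% and 8.31% of all probe sets. The test of the study's methods called 0 after adjustment, as it did for every one of the 25341 probe sets in each contrast, so that count says nothing about the regulators. The smallest p belonged to Dnmt3b, a de novo DNA methyltransferase, which averaged 10.39 in controls and 9.86 with Ag+ (-0.53, unadjusted p = 0.00421, adjusted p = 0.112). Its cofactor Dnmt3l followed, at 0.52 for AgNP minus Ag+ (unadjusted p = 0.0119), then the histone methyltransferase gene Ehmt2, at -0.16 with Ag+ (unadjusted p = 0.0222), and Dppa3, which shields maternal methylation in the zygote, at 0.13 with Ag+ (unadjusted p = 0.073). Zfp57, Trim28, Dnmt1 and Uhrf1, which maintain the mark, lay between -0.17 and 0.00 against control with Ag+. The regulators named here were chosen after their values were seen.

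A further list of 38 imprinted genes outside these clusters or less studied in them had 35 measured genes. With AgNPs 0 passed in limma (3 at an unadjusted p under 0.05, or 8.57%, beside 8.44% of all probe sets). With Ag+ 5 passed (14.3%, beside 2.28% over all probe sets). A fit of probe sets with a mean signal of at least 5 alone called 6.49% with Ag+. The list holds genes on both sides of that level. Smoc1, a matricellular gene, rose most with Ag+, from 6.70 in controls to 8.11 (1.41, adjusted p = 0.00201), and stood at 7.15 with AgNPs. Cobl, which encodes an actin nucleator, rose from 5.63 to 6.41 (0.77, adjusted p = 0.000351). Jade1, a chromatin gene, was 0.46 lower than in controls (adjusted p = 0.0256) and the chloride channel gene Ano1 0.43 lower (adjusted p = 0.037). The fifth call, named after its values were seen, was Sfmbt2, a paternally expressed Polycomb gene needed in trophoblast (-0.62, adjusted p = 0.0446). Smoc1 and Cobl were also lower with AgNPs than with Ag+ (-0.96 and -0.72, adjusted p = 0.0438 and 0.00188), and Jade1 was higher (0.50, adjusted p = 0.0451). The median of these 35 genes was -0.03 with AgNPs and -0.02 with Ag+.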

How the data were processed

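RNA of whole EBs was hybridised to Mouse Gene 2.0 ST arrays, 3 per group. The authors made log2 values for 41345 probe sets by RMA (background correction, quantile normalization, median polish) in Affymetrix Expression Console 1.3. The deposited values lie between 1.07 and 13.2, and were used without further scaling or filtering on signal. The study's filter on unexpressed probe sets is not described further in the sources used here.

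By the platform annotation, 23521 probe sets carry a single gene name, 1820 carry several and 16004 carry none here. The members, the gene lists and the marker lists were chosen with earlier results of these data known, so no test was run over a list. In limma 3.58.1 under R 4.3.3, lmFit and eBayes were run on the 9 arrays with a mean per group. The 3 contrasts were tested on both sides, adjusted by Benjamini-Hochberg over 25341 named probe sets and read at 0.05. Every listed gene is given, and those past the threshold, or past a fold change of 1.5 and an unadjusted p of 0.05, with each array. From the other lists, called genes are named, or the 4 with the smallest p where more passed. Precision is limited by the small number of arrays, of which no 2 were identical.

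As alternatives, each pair of groups was fitted alone, the replicate number was used as a block, limma's trend and robust settings or its array weights were turned on, and the methods' Welch test and the study's thresholds were applied. Others required a mean signal of 5, tested the unnamed probe sets too, centred each array, averaged the probe sets of a gene, added shared probe sets, or left out each array in turn. A fit without both AgNP replicate 1 and control replicate 3 was chosen after seeing the data. Promoter and microRNA sequences are from RefSeq (GRCm38.p6), and 36 of the 46 genes had a promoter entry that was used.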

Additional observations from a re-analysis of the deposited data

How the results depend on the processing

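The methods' Welch test after adjustment called 0 of all 25341 probe sets in each contrast, so its 0 calls among the imprinted genes are no result about them. With AgNPs, the 1 call (Slc38a4) became 0 in the fit of only the 2 groups, with the replicate block, with all probe sets, and with AgNP replicate 1 and control replicate 3 left out together. The fit of the 2 groups called 0 of 25341 probe sets, the block 20, the fit with all probe sets 4 of 41345 and the last 5. At the study's thresholds it became 2 in limma and 2 in the methods' Welch test, and leaving out single arrays gave 0 to 2, with 0.0118% to 0.142% of all probe sets called. With Ag+, the 6 calls became 3 to 7 with single arrays left out, where 1.11% to 2.05% of all probe sets were called. Slc38a4, Mest and Nnat were called without any 1 array. Igf2r was lost in every such fit, Phlda2 without control replicate 2, Ag+ replicate 1 or Ag+ replicate 2, and Peg3 without control replicate 2 or 3, AgNP replicate 2 or any Ag+ replicate. The other alternatives gave 4 to 7 calls, beside 0.834% to 6.49% of all probe sets. Between AgNP and Ag+, the 0 calls became 1 with the replicate block (Phlda2, beside 0.635% of all), 1 with trend and robust options (0.683%), 1 with a mean of at least 5 (1.58%) and 1 in the methods' Welch test at the study's thresholds (each Nnat), 2 in limma at those thresholds, and 0 to 1 with single arrays left out, where the call was Nnat without Ag+ replicate 1. No called gene changed sign in any alternative.

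The labels do not say that a replicate number marks a shared batch. Deviations from the group means correlated at -0.06 to 0.23 between arrays of the same number, over 0.1 for 4 of 9 pairs, the 3 pairs of replicate 1 among them, and at -0.27 to 0.19 between others. An array correlated best with its own number in 12 of 18 comparisons with another group, a hint of pairing in part of the arrays. Since not every pair was over 0.1, the numbers were not used as a block in the values reported. With the number as a block, Igf2 passed with Ag+ (-0.61, adjusted p = 0.0201 in limma) and Igf2r did not (adjusted p = 0.0749), with 6 calls as before. Precision is limited by the small number of arrays, and 9 of the 40 genes had a mean signal under 5.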

Other observations

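Around the IGF2 axis, 14 of 16 listed genes of insulin-like growth factor signalling were measured. None passed in limma with AgNPs (3 at an unadjusted p under 0.05, beside 8.44% of all probe sets), and 2 rose with Ag+ (beside 0.813% of all probe sets that did). Igfbp5, a binding protein of the IGFs in the matrix, averaged 5.81 in controls, 6.08 with AgNPs and 7.27 with Ag+ (1.46 against control, SE 0.148, adjusted p = 0.00118). Pappa, a protease that cleaves IGF binding proteins, averaged 5.72, 6.25 and 6.77 (1.05 with Ag+, SE 0.115, adjusted p = 0.00184). The ligand genes Igf1 and Ins2 and the receptor genes Igf1r and Insr were not called in any of the 3 contrasts. Ins2 averaged 2.46 in controls, near the floor of the array, so its lack of a call says little.

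The transcripts of the imprinted clusters also carry microRNAs. Of 38 listed microRNA genes 25 had a probe set of their own, and 0 passed in limma in any contrast (3 with AgNPs, 0 with Ag+ and 1 between them at an unadjusted p under 0.05, beside 8.44%, 13.8% and 8.31% of all probe sets). Their medians were -0.02 with AgNPs and 0.02 with Ag+, and the mean level of the list was 3.36 to 3.51 on control arrays. That mean lies under 3.72, the lower quartile of the mean signal of named probe sets. At such levels the lack of calls says little about these genes.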
